A study of Mus musculus with 18 samples.

Results

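The 10 genes described here are the 4 members of the Fos family (Fos, Fosb, Fosl1 and Fosl2), the 3 members of the Jun family (Jun, Junb and Jund), and the stress-induced genes Atf3, Maff and Ier3. They were chosen by gene name from 37319 genes in the deposited table, and each name was found. The values were FPKM, that is, fragments scaled to transcript length and to the mapped fragments of the library, from RNA-seq of cortex on the injured side. The animals were male C57BL/6J mice of 8 to 10 weeks and 24 to 26 g. Each had received AAV, a viral vector, into the left lateral ventricle, with the neuron-specific synapsin promoter driving a short hairpin RNA against Tiparp (T libraries) or a scrambled hairpin (C libraries). After 4 weeks came sham surgery or tMCAO, a stroke model that closes the middle cerebral artery for a time and then lets blood return. The 18 libraries form 6 groups of 3: sham with the Tiparp hairpin (Sham_T) or the scramble (Sham_C), 24 h after tMCAO with either virus (R24h_T, R24h_C), and 28 d after tMCAO with either virus (R28d_T, R28d_C). The promoter limits the hairpin to neurons, whereas RNA came from whole cortex, and the T and C libraries of a time differ, by their labels, in the hairpin alone.

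Fos and Jun proteins are basic leucine zipper factors that bind DNA as the dimer AP-1. Jun proteins can pair with each other or with a Fos protein, whereas Fos proteins need a Jun partner, so the mix of members sets which dimers a cell can form. In brain, Fos, Fosb and Junb are immediate early genes that follow neuronal firing, Jun is induced in injured neurons and is the main nuclear substrate of the JNK kinases, and Atf3 marks axon and cell damage. AP-1 binds the site TGACTCA (the TRE), and ATF and CREB factors bind TGACGTCA (the CRE).

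Promoters are shown for the members on which the results below turn: Fos and Junb, whose levels varied together within groups, and Jun, Atf3 and Maff, which were higher at 24 h. RefSeq tables of build GRCm38.p6 held a window for 9 of the 10 members, and for Fosl1 none was read. Each window is the 250 bases upstream of an annotated start, 5′ to 3′ along the gene's own strand. Capitals mark matches, on either strand, to the TRE TGACTCA, the CRE TGACGTCA, the core TGACG that every CRE contains, or TGACATCA, a Jun-type variant. The windows lie at chr12:85473640-85473889 (plus strand), chr8:84978749-84978998 (minus strand), chr4:95052223-95052472 (minus strand), chr1:191183334-191183583 (minus strand) and chr15:79347270-79347519 (plus strand, the second of 3 annotated starts of Maff).
Fos: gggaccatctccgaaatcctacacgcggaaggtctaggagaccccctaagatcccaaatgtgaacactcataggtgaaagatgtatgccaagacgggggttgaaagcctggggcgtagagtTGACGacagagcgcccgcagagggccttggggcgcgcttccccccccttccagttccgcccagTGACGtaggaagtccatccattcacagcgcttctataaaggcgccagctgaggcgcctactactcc
Junb: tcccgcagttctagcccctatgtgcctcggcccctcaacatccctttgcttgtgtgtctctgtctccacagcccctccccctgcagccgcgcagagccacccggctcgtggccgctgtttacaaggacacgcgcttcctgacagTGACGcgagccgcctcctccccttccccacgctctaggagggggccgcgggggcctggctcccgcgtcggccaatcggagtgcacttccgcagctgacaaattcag
Jun: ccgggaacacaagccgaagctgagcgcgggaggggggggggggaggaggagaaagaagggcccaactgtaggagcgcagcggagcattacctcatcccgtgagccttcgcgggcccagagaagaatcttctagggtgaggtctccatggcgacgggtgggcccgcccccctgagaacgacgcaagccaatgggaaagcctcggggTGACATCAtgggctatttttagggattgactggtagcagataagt
Atf3: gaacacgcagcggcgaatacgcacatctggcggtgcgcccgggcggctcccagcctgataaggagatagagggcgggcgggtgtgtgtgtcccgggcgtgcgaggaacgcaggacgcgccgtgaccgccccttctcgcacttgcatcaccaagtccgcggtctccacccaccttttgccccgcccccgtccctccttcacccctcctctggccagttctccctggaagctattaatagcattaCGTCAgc
Maff: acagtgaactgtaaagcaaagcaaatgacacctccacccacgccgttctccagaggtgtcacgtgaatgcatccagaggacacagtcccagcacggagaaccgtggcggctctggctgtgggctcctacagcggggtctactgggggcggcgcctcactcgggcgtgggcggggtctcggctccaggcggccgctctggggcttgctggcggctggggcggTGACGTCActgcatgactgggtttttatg
No window of a member held the TRE, which was present in 4.46% of all 32851 windows of this length. The Maff window held a whole CRE starting 29 bases before the start site, a motif present in 1.55% of windows. The core TGACG, present in 17.8% of windows, was found 129 and 66 bases before the start of Fos, 106 bases before that of Junb and 60 bases before that of Fosb. It was found 7 bases before the start of Atf3, on the opposite strand. The Jun-type variant, present in 2.93% of windows, lay 45 bases before the start of Jun and as far before the third Maff start, whose window also held the core on the opposite strand at 122 bases. The windows of Fosl2, Jund and Ier3 and the first Maff window held none of these letters. These are matches of letters in short windows, and no binding was measured.

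The libraries differed in ways that touch what follows. Between 13073 and 14427 genes per library reached 1 FPKM, and Pearson's r across genes within groups was 0.944 to 0.985. FPKM hold no read totals, and the steps between low values gave only a rough depth of 0.933 to 1.08 times that of Sham_C1. Tiparp, the gene the hairpin targets, was at 4.17 to 4.95 FPKM in Sham_T and 3.77 to 4.76 FPKM in Sham_C, at 3.00 to 5.00 FPKM in R24h_T and 4.60 to 8.65 FPKM in R24h_C, and at 3.72 to 4.06 FPKM in R28d_T and 3.59 to 4.46 FPKM in R28d_C. The ranges of the arms overlapped at every time. R24h_C3 stood apart: its summed FPKM was 1706 for 5 choroid plexus markers, against 7.97 and 14.6 in the other R24h_C libraries, and 393 for 8 striatal neuron markers, against 77.6 and 129. Its summed level of 6 excitatory neuron markers was 198 FPKM, against 372 and 523. The choroid plexus sum was also high in Sham_T1 (631), Sham_T2 (508), R28d_T2 (723) and R28d_C2 (84.5), and it was 1.45 to 15.0 FPKM in the other 13 libraries. The striatal sum was also high in Sham_T3 (319), against 149 in Sham_T1 and 173 in Sham_T2.

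On the scale of FPKM, which is corrected for transcript length, Jund was the most abundant member and Atf3 the least in sham cortex. In Sham_C, Jund averaged 55.9 ± 2.77 FPKM, Junb 34.4 ± 5.02, Fos 21.4 ± 4.78 and Jun 13.7 ± 2.69 (SD, n = 3). Fosb (4.61 ± 1.10 FPKM), Fosl2 (4.51 ± 0.795 FPKM), Ier3 (2.96 ± 0.359 FPKM) and Fosl1 (2.16 ± 0.121 FPKM) formed a lower tier. Maff and Atf3 were under 1 FPKM on average, at 0.919 ± 0.224 and 0.332 ± 0.200 FPKM. Fos and Jun overlapped between libraries, as did Fosb and Fosl2, while the other neighbours in this order did not. In R24h_C the order was Jund (60.7 ± 7.40 FPKM), Jun (35.7 ± 7.92), Fos (35.6 ± 19.7), Junb (34.4 ± 7.66), Ier3 (21.6 ± 5.74), Fosl1 (17.8 ± 10.2), Atf3 (12.3 ± 6.62), Maff (9.03 ± 4.23), Fosl2 (4.29 ± 1.42) and Fosb (3.06 ± 0.429). There only Jund stood clear of its neighbour, and every other pair of neighbours overlapped between libraries.

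**Figure D1:**
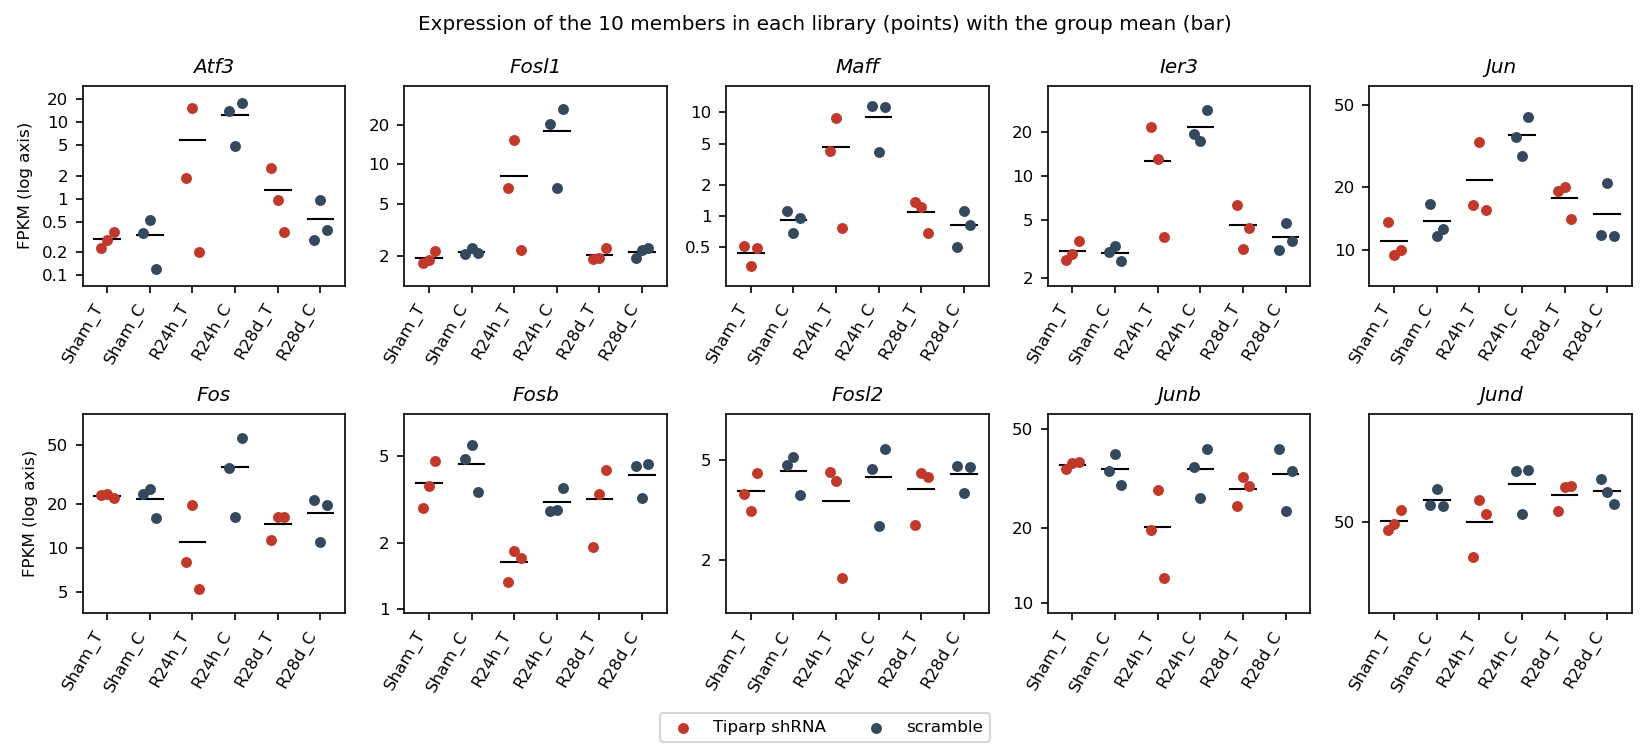
FPKM of the 10 members in every library (points, log axis) with the group mean (black bar), by group from sham to 28 d, with the Tiparp hairpin (red) left of the scramble (dark). Atf3, Fosl1, Maff, Ier3 and Jun stand highest in R24h_C and next in R24h_T, while Jund stays between 41.7 and 65.2 FPKM in all 18 libraries.

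In scramble-treated cortex 24 h after tMCAO, 5 of the 10 members were higher than in sham and none was lower (4.23% of genes were called lower), by limma on log2(FPKM + 1) with Benjamini-Hochberg adjustment over all genes tested. The 5 were Atf3, Ier3, Fosl1, Maff and Jun, and none of them overlapped between R24h_C and Sham_C. Of 13873 genes tested, 24.0% were called in this comparison and 19.8% were called higher, so change was common in this tissue. The median difference was 0.94 over the members and 0.13 over all genes, on the log2 scale. Groups did not overlap for 47.9% of all genes tested, with R24h_C the higher for 36.1%. All 10 members passed the filter on low values (1 FPKM or more in 3 or more of the libraries compared). However, Atf3 passed it through R24h_C alone, and Maff reached 1 FPKM in Sham_C only in Sham_C1 (1.12). With no filter both were still called (limma adjusted p = 0.0260 for Atf3 and 0.0314 for Maff). In bulk tissue, fewer cells of a type and less RNA per cell cannot be told apart.

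Atf3, an ATF/CREB-family factor induced by many kinds of cell stress, was at 14.1, 4.94 and 17.8 FPKM in R24h_C libraries 1, 2 and 3, against 0.355, 0.521 and 0.122 FPKM in Sham_C. Every injured library was several times above every sham library. The difference was 3.17 on the log2(FPKM + 1) scale (SE 0.41, 95% interval 2.19 to 4.15, limma adjusted p = 0.00667, n = 3 each). This scale understates the change of a low gene, and the ratio of the mean FPKM values was 37.0. Maff, a small Maf protein that lacks an activation domain of its own, was at 11.6, 4.15 and 11.4 FPKM in R24h_C, against 1.12, 0.680 and 0.953 FPKM in Sham_C (log2 difference 2.28, SE 0.35, limma adjusted p = 0.00948). Its mean was 9.83 times as high. Ier3, an immediate early gene that acts on survival and ERK signalling, was at 19.3, 17.4 and 28.1 FPKM in R24h_C, against 2.98, 3.31 and 2.59 FPKM in Sham_C. Its difference of 2.49 (SE 0.18, limma adjusted p = 0.00151) had the smallest adjusted p of the members, and its mean was 7.30 times as high.

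Fosl1 encodes Fra-1, a Fos protein that outlasts Fos after many stimuli. It was at 20.2, 6.61 and 26.5 FPKM in R24h_C, against 2.07, 2.30 and 2.11 FPKM in Sham_C, a ratio of means of 8.24 (log2 difference 2.38, SE 0.44, limma adjusted p = 0.0159). R24h_C2 held the lowest level of the 3 injured libraries. Its gene model overlaps Ccdc85b on the opposite strand, and the libraries are stranded, but whether strand was used in quantification is not given in the sources used here. Ccdc85b was at 32.0 to 43.2 FPKM in R24h_C and 28.8 to 30.8 FPKM in Sham_C, so its groups did not overlap either, and the level of about 2 FPKM of Fosl1 in sham libraries is uncertain for this reason. Jun was at 35.0, 28.2 and 43.9 FPKM in R24h_C, against 16.7, 11.7 and 12.6 FPKM in Sham_C, which is 2.61 times on the means (log2 difference 1.32, SE 0.20, limma adjusted p = 0.00928). The antisense model Junos, which overlaps Jun, was at 0.0798 to 0.248 FPKM in these 6 libraries.

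The other 5 members did not pass. Fos, the classical marker of neuronal activation, was at 34.9, 16.2 and 55.7 FPKM in R24h_C, against 23.1, 25.0 and 16.0 FPKM in Sham_C. R24h_C2 lay within the sham range and R24h_C3 far above it, and the difference of 0.57 had an interval of -0.43 to 1.57 (limma adjusted p = 0.348). Fosb, whose truncated splice form accumulates with repeated stimulation, was at 2.79, 2.83 and 3.55 FPKM in R24h_C, against 4.83, 5.58 and 3.42 FPKM in Sham_C (log2 difference -0.45, limma adjusted p = 0.0866). Only R24h_C3 reached the sham range. Fosl2, which encodes Fra-2, had a difference of -0.09 (interval -0.61 to 0.44). Junb, an immediate early Jun protein that can restrain Jun, was at 35.3, 26.4 and 41.6 FPKM in R24h_C, against 33.8, 39.7 and 29.7 FPKM in Sham_C, a difference of -0.01 (interval -0.46 to 0.43). Jund, the broadly expressed Jun protein, differed by 0.11 (interval -0.17 to 0.39). Junb overlaps Prdx2 on the opposite strand, which was at 28.0 to 29.3 FPKM in R24h_C and 22.2 to 23.4 FPKM in Sham_C.

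Single libraries decided several calls. Without R24h_C1, Atf3 failed the filter, Fosl1 (adjusted p = 0.0769), Jun (0.0578) and Maff (0.056) missed the threshold, and only Ier3 was called, while the count over all genes was 320 in place of 3333. Without each Sham_C library in turn, 4 members were called and Fosl1 was lost (limma adjusted p = 0.0609 to 0.0655). Without R24h_C2, where Fos was lowest, Fos was called higher (1.03, limma adjusted p = 0.0285) and Atf3 failed the filter, so 5 members were again called, beside 4858 genes in all. Without R24h_C3, the library rich in choroid plexus and striatal RNA, Atf3 failed the filter and 4 members were called, namely Fosl1 (2.01), Jun (1.16), Maff (2.08) and Ier3 (2.29). Array weights called Fos higher (0.66, 0.0421) and Fosb lower (-0.55, 0.0189) beside the 5, and 7533 genes in all. When libraries were scaled to equal median ratios, the median over all genes was -0.02 and 57.2% of calls were higher (1533 higher, 1149 lower), against 82.4% as deposited (2746 higher, 587 lower). The 5 members were higher there too, and Fosb was called lower (-0.60, limma adjusted p = 0.0477).

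With the Tiparp hairpin, R24h_T libraries differed more among themselves and no member passed against Sham_T. Only 0.200% of 13501 genes were called in this comparison, 27 genes in all (0.126% higher, 0.0741% lower), although 1932 had an unadjusted p under 0.05. Of the 8 members that passed the filter, 6 had an unadjusted p under 0.05. Atf3 and Maff were not tested, since only 2 libraries reached 1 FPKM. Fosl1, Jun, Maff and Ier3 did not overlap between R24h_T and Sham_T and were higher in R24h_T, whereas Fos, Fosb and Junb did not overlap and were lower. Of all tested genes 22.2% did not overlap, 13.9% higher and 8.27% lower.

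Ier3 was at 21.4, 13.0 and 3.82 FPKM in R24h_T libraries 1, 2 and 3, against 2.65, 2.93 and 3.58 FPKM in Sham_T (log2 difference 1.51, SE 0.49, limma adjusted p = 0.255). Fosl1 was at 6.53, 15.4 and 2.23 FPKM in R24h_T, against 1.77, 1.86 and 2.19 FPKM in Sham_T (1.33, SE 0.50, limma adjusted p = 0.315). Jun was at 16.5, 33.2 and 15.5 FPKM in R24h_T, against 13.6, 9.43 and 9.97 FPKM in Sham_T (0.85, SE 0.29, limma adjusted p = 0.270). R24h_T3 was the lowest of its group for each of these genes and sat at the edge of the sham range for Fosl1 and Ier3. Atf3 was at 1.88, 15.2 and 0.201 FPKM in R24h_T, against 0.226, 0.292 and 0.366 FPKM in Sham_T, so that R24h_T3 lay below every Sham_T library and R24h_T2 was as high as the scramble libraries. Maff was at 4.28, 8.92 and 0.764 FPKM in R24h_T, against 0.506, 0.328 and 0.484 FPKM in Sham_T.

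The firing-related members stood low in the same libraries. Fos was at 8.03, 19.4 and 5.25 FPKM in R24h_T, against 22.8, 23.3 and 21.7 FPKM in Sham_T, and every R24h_T library was under every Sham_T library (log2 difference -1.17, interval -2.05 to -0.29, limma adjusted p = 0.253). Junb was at 19.7, 28.5 and 12.6 FPKM in R24h_T, against 34.4, 36.5 and 36.7 FPKM in Sham_T (-0.86, limma adjusted p = 0.228). Fosb was at 1.33, 1.84 and 1.70 FPKM in R24h_T, against 2.89, 3.64 and 4.72 FPKM in Sham_T (-0.84, limma adjusted p = 0.105). Fosl2 (-0.16) and Jund (-0.02) had intervals on both sides of 0. Leaving out R24h_T3 raised the all-gene count to 824 and the member count to 2, with Ier3 at 2.14 (limma adjusted p = 0.00969) and Fosl1 at 1.92 (limma adjusted p = 0.0296).

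**Figure D2:**
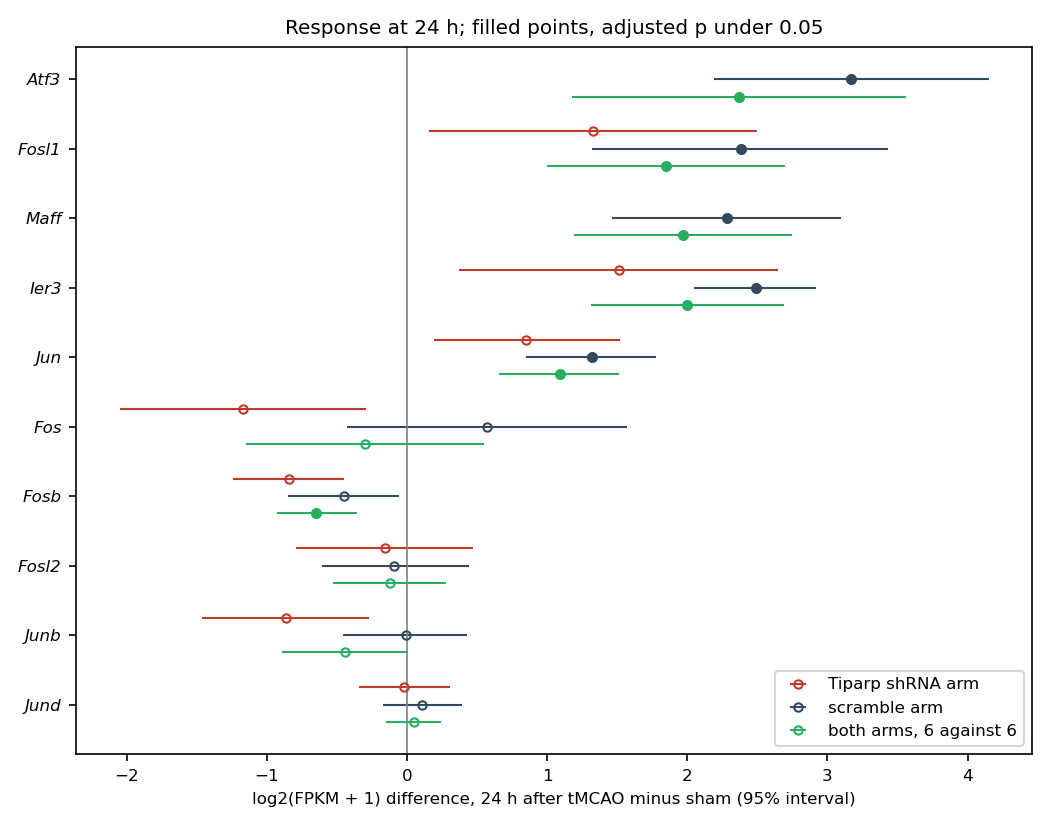
Difference in log2(FPKM + 1) between 24 h after tMCAO and sham for each member, with 95% intervals from limma, for the Tiparp hairpin (red), the scramble (dark) and both arms together (green); filled points had an adjusted p under 0.05. Atf3, Fosl1, Maff, Ier3 and Jun lie right of 0 and Fosb left of 0 wherever they were tested (Atf3 and Maff were not with the Tiparp hairpin), while Fos lies at 0.57 with the scramble and at -1.17 with the Tiparp hairpin.

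Over both arms, with 6 injured and 6 sham libraries and the arm as a term, 6 members passed: Atf3 (2.37, limma adjusted p = 0.0107), Ier3 (2.0, 0.00189), Maff (1.97, 0.00356), Fosl1 (1.85, 0.00703) and Jun (1.09, 0.00336) were higher, and Fosb (-0.65, SE 0.13, 0.0057) was lower. Here 24.7% of 14578 genes were called, 19.3% higher and 5.38% lower. Atf3 was under 1 FPKM in every sham library and Maff in every one but Sham_C1, so both passed the filter through the 24 h libraries. With no filter both were still called (limma adjusted p = 0.0316 for Atf3 and 0.0136 for Maff). All 6 R24h libraries of either arm had less Fosb than the mean of their own sham group. Fos (-0.30, interval -1.15 to 0.55), Junb (-0.44, limma adjusted p = 0.138), Fosl2 (-0.12) and Jund (0.05) did not pass. The count stayed at 6 whichever of the 12 libraries was left out, and under scaling to equal median ratios Junb was called lower as well (-0.56, limma adjusted p = 0.0457). That scaling gave 54.9% of calls higher over all genes, against 78.2% as deposited.

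The arms were then set against each other at 24 h, where the labels pose the question of whether silencing neuronal Tiparp alters the response. All 10 members had a negative log2 difference between R24h_T and R24h_C, and none passed (0% of 14010 genes did), while 1013 genes and 4 members had an unadjusted p under 0.05. The median over the members was -0.865 and over all genes -0.077, but the members vary together from library to library, so their shared sign is not 10 observations. Fos was at 8.03, 19.4 and 5.25 FPKM in R24h_T, against 34.9, 16.2 and 55.7 FPKM in R24h_C, groups that overlapped (-1.64, interval -2.89 to -0.40, unadjusted p = 0.0162, limma adjusted p = 0.667). Fosb was the 1 member whose groups did not overlap, at 1.33 to 1.84 FPKM in R24h_T and 2.79 to 3.55 FPKM in R24h_C (-0.63, interval -0.98 to -0.28, limma adjusted p = 0.667). Of all genes tested, 8.79% were lower without overlap. Atf3 (-1.64), Fosl1 (-1.16), Maff (-1.04), Ier3 (-0.95), Junb (-0.78) and Jun (-0.75) had larger differences than Fosl2 (-0.29) and Jund (-0.28), and each had a limma adjusted p of at least 0.667.

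The test of the difference between the 24 h responses of the arms, which uses the same R24h libraries and each arm's sham, likewise called 0 of 14578 genes, with 1593 at an unadjusted p under 0.05. For Fos the response with the Tiparp hairpin minus that with the scramble was -1.74 (interval -3.12 to -0.37, unadjusted p = 0.0176, limma adjusted p = 0.416), and for Junb it was -0.85 (interval -1.61 to -0.09, limma adjusted p = 0.428). The intervals of Atf3 (-1.61), Fosl1 (-1.05), Ier3 (-0.98), Maff (-0.63), Jun (-0.46), Fosb (-0.39), Jund (-0.13) and Fosl2 (-0.08) all contained 0. Without R24h_T3 the difference was 0.05 for Maff and 0.25 for Fosl2. It was then -0.77 for Atf3, -0.46 for Fosl1 and -0.35 for Ier3. In sham cortex no member passed between the arms, where 0.210% of 13342 genes were called (0.0824% higher, 0.127% lower). There 1714 genes and 1 member, Jund (-0.15, unadjusted p = 0.0492, limma adjusted p = 0.385), had an unadjusted p under 0.05. Jund did not overlap there and was lower in Sham_T, as were 8.85% of all genes tested. Maff, which failed the filter there, was also lower in Sham_T without overlap.

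Libraries were then set side by side. For the 5 members called at 24 h with the scramble, the median of their 5 log2 deviations from the sham mean of the same arm was taken. It was 1.36, 2.49 and 0.26 in R24h_T libraries 1, 2 and 3, against 2.72, 1.43 and 2.88 in R24h_C. These 5 were picked by their calls in R24h_C against Sham_C, so the R24h_C medians are high in part by that choice. They cannot be used to compare the arms. For the other 5 members this median was -0.83, -0.21 and -0.81 in R24h_T, against 0.05, -0.36 and 0.25 in R24h_C. R24h_T1 was high for Ier3 (2.47) but low for Jun (0.56) and Fos (-1.38), so the members did not rank the libraries alike.

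**Figure D3:**
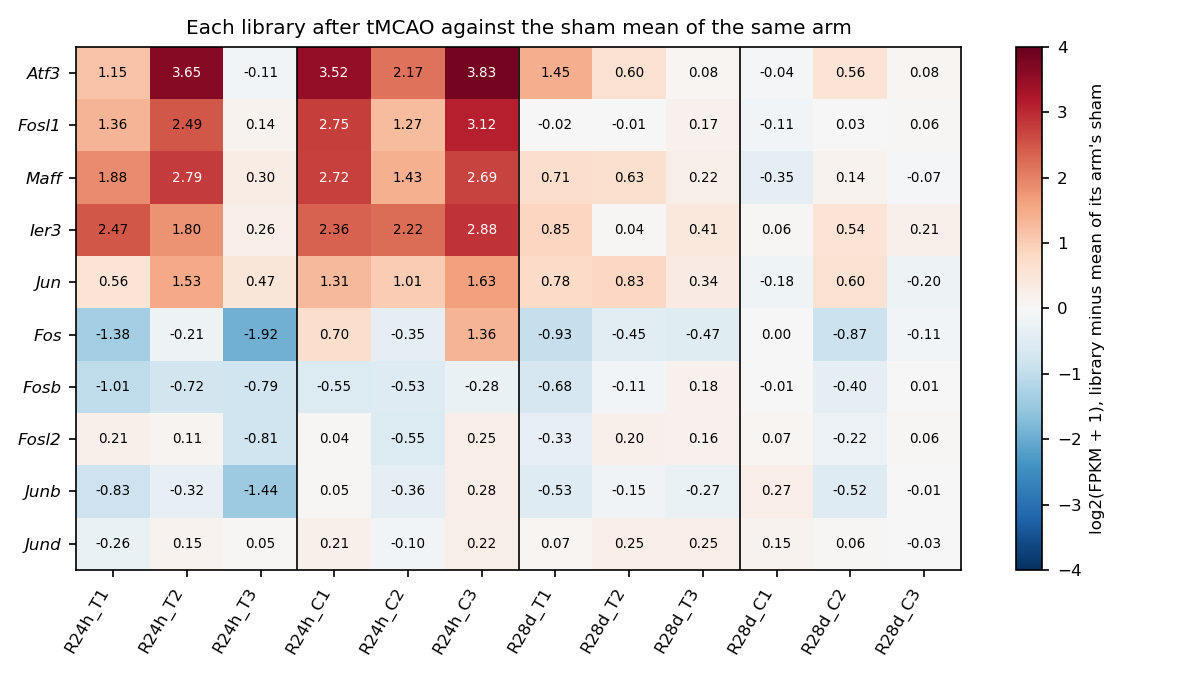
Log2(FPKM + 1) of each member in each library after tMCAO minus the sham mean of the same arm; red is higher and blue lower, and the values are printed in the cells. The top 5 rows are the members called in R24h_C against Sham_C. They are red throughout R24h_C and in R24h_T1 and R24h_T2. R24h_T3 is near 0 in those rows and blue for Fos (-1.92) and Junb (-1.44), and the 28 d columns are paler.

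Markers of some other cell types moved with these libraries, and those of others did not. The 7 reactive astrocyte markers (Gfap, Vim, Lcn2, Serpina3n, Osmr, Steap4, Cd44), summed to 700, 615 and 214 FPKM in R24h_T libraries 1, 2 and 3 and to 36.6 to 61.7 FPKM in Sham_T, and to 814, 825 and 1072 FPKM in R24h_C and 39.1 to 48.4 FPKM in Sham_C. The 8 infiltrating myeloid markers summed to 33.7, 73.5 and 7.29 FPKM in R24h_T and 1.38 to 1.64 FPKM in Sham_T, and to 116, 40.2 and 244 FPKM in R24h_C and 2.06 to 2.57 FPKM in Sham_C. All 7 astrocyte markers and the 4 myeloid markers that were tested were called higher in R24h_C, but Lcn2, Osmr, Steap4, Cd44, S100a8 and Msr1 were under 1 FPKM in every sham library and passed the filter through R24h_C alone. Ly6g was listed at 0 in all 6 sham libraries. The 6 endothelial markers summed to 12.6 to 47.8 FPKM in R24h_T and 5.24 to 5.87 FPKM in Sham_T, and to 19.9 to 42.6 FPKM in R24h_C and 5.97 to 7.00 FPKM in Sham_C. R24h_T3 was lowest of its group for each of these sums, as it was for Atf3, Fosl1, Maff, Ier3 and Jun. It was not lowest for microglia markers (214, 126 and 168 FPKM in R24h_T libraries 1, 2 and 3) or mural markers (29.2, 21.9 and 22.5 FPKM). For astrocyte markers it was highest (323, 377 and 546 FPKM), as it was for the 6 excitatory neuron markers (486, 390 and 696 FPKM). The excitatory sum was 539 to 572 FPKM in Sham_T, 372, 523 and 198 FPKM in R24h_C and 613 to 650 FPKM in Sham_C. The 6 inhibitory neuron markers summed to 313, 402 and 322 FPKM in R24h_T, where R24h_T3 was neither highest nor lowest. In R24h_C, library 2 was lowest for Atf3, Fosl1, Maff, Ier3 and Jun and for the myeloid and endothelial sums. It was not lowest for the reactive astrocyte sum. The part of these cells in the members' differences was not tested.

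The make-up of each family differed between 24 h and sham, described here as shares with no test. Fosl1 made up 32.1%, 37.9% and 20.5% of the summed Fos-family FPKM in R24h_T, against 5.70%, 5.81% and 6.63% in Sham_T. With the scramble it was 32.4%, 23.3% and 29.0% in R24h_C, against 5.96%, 6.04% and 8.41% in Sham_C. In R24h_T3, whose Fosl1 level was close to sham, the other Fos-family values were low: the family summed to 10.9 FPKM there and to 31.1 to 33.0 FPKM in Sham_T. Fosb made up 6.55%, 4.52% and 15.7% of the family in R24h_T, against 9.28%, 11.4% and 14.3% in Sham_T, so R24h_T3 lay above every Sham_T library. It made up 6.11% ± 3.35 of the family in R24h_C, against 14.1% ± 0.539 in Sham_C (SD, n = 3). In the Jun family, Jun accounted for 22.9% ± 4.73 in R24h_T and 11.4% ± 2.44 in Sham_T, and for 27.2% ± 1.74 in R24h_C and 13.2% ± 2.68 in Sham_C. Junb accounted for 21.8% ± 5.24 in R24h_T and 37.0% ± 1.21 in Sham_T, and for 26.2% ± 1.44 in R24h_C and 33.0% ± 2.65 in Sham_C. At 28 d Fosl1 made up 8.85% ± 1.62 in R28d_T and 8.15% ± 2.60 in R28d_C. Shares of transcript do not give shares of protein or of dimers.

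**Figure D4:**
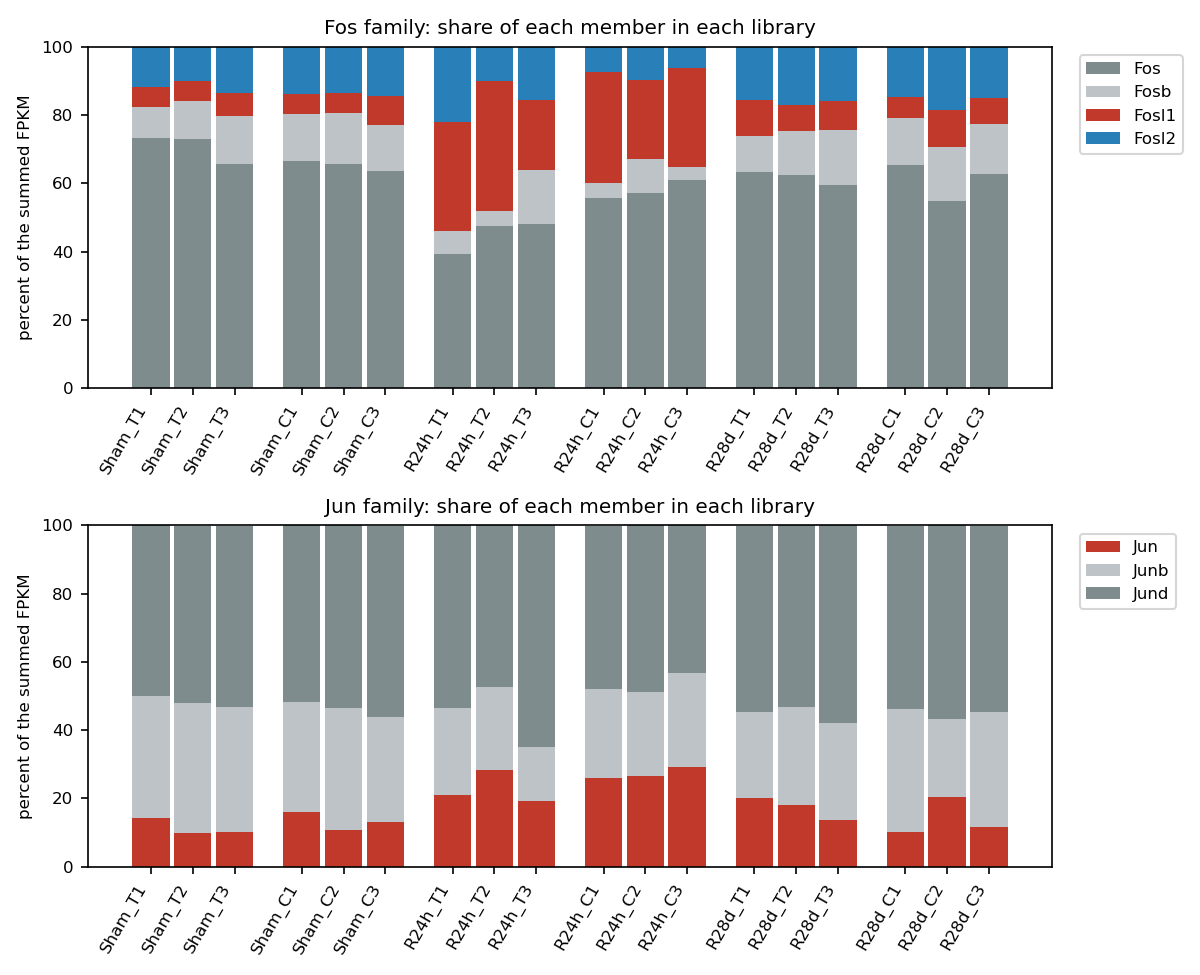
Share of each member in the summed FPKM of the Fos family (top) and the Jun family (bottom) in each library, from sham to 28 d, with the Tiparp hairpin left of the scramble at each time. Fosl1 (red, top) takes 20.5% to 37.9% in the 6 libraries at 24 h and 5.70% to 8.41% in the 6 sham libraries.

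Many pairs of members varied together within groups. With group means removed, Pearson's r over the 18 libraries was 0.93 for Fos and Junb, 0.92 for Fosl1 and Maff, 0.91 for Atf3 and Maff, 0.87 for Fosl1 and Atf3, 0.83 for Fosl2 and Junb and 0.77 for Jun and Atf3. Pairs across the families and stress genes were also close, at 0.77 for Fosl1 and Junb, 0.69 for Fos and Atf3 and 0.69 for Fos and Maff, whereas Jun and Ier3, both called at 24 h, stood at 0.31. Fos and Fosl1 stood at 0.86 within groups but at 0.45 over the groups as they are. Fosb went with neither Jun (-0.23) nor Atf3 (-0.06). Points share library, tissue makeup and depth, removing 6 group means leaves fewer free points than libraries, and the libraries at 24 h weigh most, so these are descriptions.

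**Figure D5:**
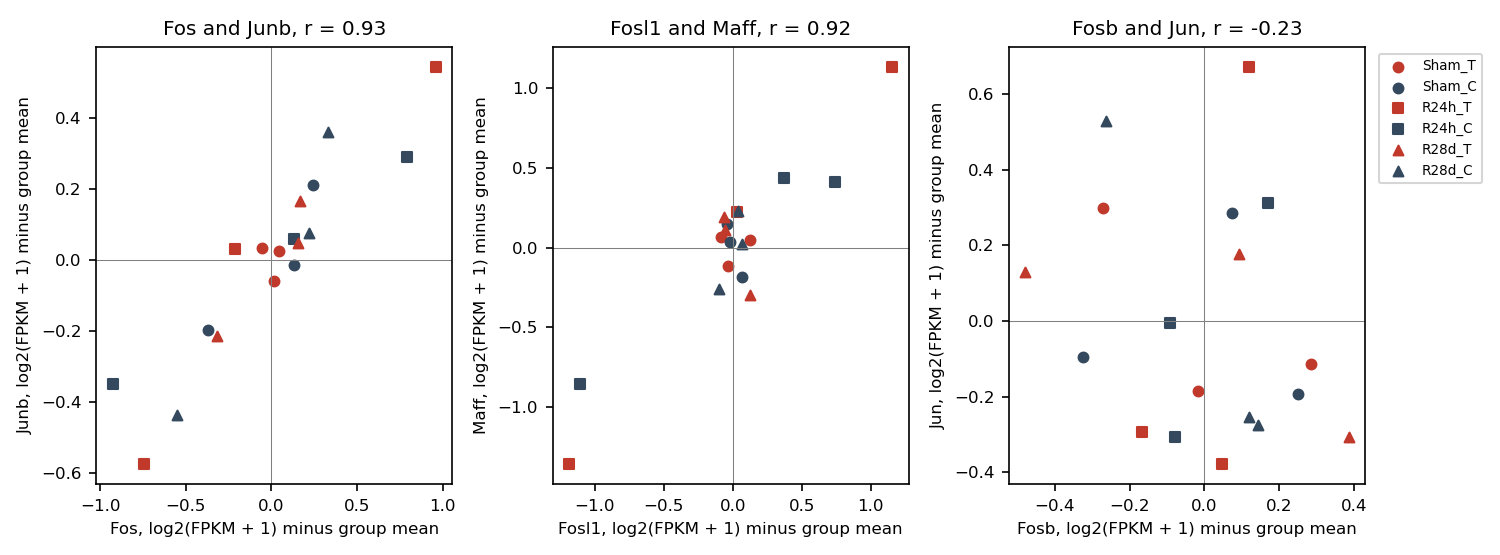
Deviation of each library from its group mean in log2(FPKM + 1), for Fos and Junb, Fosl1 and Maff, and Fosb and Jun, coloured by virus and shaped by time. Fos and Junb fall on a line with libraries of all times, whereas the line of Fosl1 and Maff is drawn out by libraries at 24 h (squares), and Fosb and Jun show no line.

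Among 14963 genes, those whose log2 levels were most like a member's over the 18 libraries were also described. For Fos they were Zfp948 (r = 0.93), the immediate early gene Ier2 (0.89) and the kinase Plk3 (0.87), and for Junb they were Midn (0.89), Plk3 (0.89) and Klf10 (0.86). For Fosb they were Egr1 (0.92), Nab2 (0.90), which encodes a corepressor of Egr proteins, and Rundc1 (0.86). Fosl1 was most like Procr, Tnfrsf12a and Gpr151 (each 0.98), Maff most like Sbno2 (0.99), Ddx21 and Procr (0.98), Atf3 most like Ddx21, Gpr35 and Gm42793 (0.98), and Ier3 most like Socs3, Lox and Cdh5 (0.98). Jun was nearest to Fmnl2 (0.95), Ezr and CT009546.1 (0.94). Fosl2 (Sik1, 0.83) and Jund (Rrp9, 0.79) had no neighbour as close. These r were computed over the groups as they are, so differences between groups are part of them.

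Genes around AP-1 were counted in R24h_C against Sham_C over lists. The lists stand beside a median of 0.13 over all genes and, over all genes, 19.8% called higher and 4.23% called lower. Of 20 AP-1 target genes, 14 passed the filter, some through R24h_C alone, 13 were called higher and none lower, with a median of 1.97. Spp1, which encodes osteopontin (5.95), the protease inhibitor Timp1 (5.17), the matrix protease Mmp3 (3.62) and the urokinase receptor Plaur (3.16) had the largest differences. Of 25 other stress-induced factors, 22 were tested, some through R24h_C alone, and 15 were higher. Bcl3 (2.79), Cebpd (2.41), Stat3 (1.94) and the stress regulator Nupr1 (1.69) had the largest differences. Bcl3 was at 0.0495, 0.102 and 0.0381 FPKM in Sham_C and passed the filter through R24h_C alone (6.52, 4.26 and 9.09 FPKM). Of 11 Maf and CNC factors, the partners of Maff, 7 were tested and 4 were higher, among them Mafk (1.23), Nfe2l2 (1.22), which encodes the antioxidant regulator Nrf2, and the repressor Bach1 (1.0). The 7 other AP-1 partners had 3 tested members and 0 calls, with Jdp2 (-0.34, limma adjusted p = 0.179) and Atf2 (0.16, 0.236) nearest to the threshold. Array weights called 1 of them, beside 7533 of 13873 genes.

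Of 14 JNK pathway genes 13 were tested and 1, the JNK-activating kinase Map3k13 (-0.36), was lower, a share near that of all genes called lower. Of 13 ERK, p38 and SRF pathway genes, the p38-activating kinase Map2k3 (1.01) and the p38 substrate Mapkapk2 (0.91) were higher and Mapk11, a p38 isoform (-0.66), was lower. These shares were also near those of all genes (19.8% higher and 4.23% lower). Among 8 tested MAP kinase phosphatases of 9, Dusp10 (1.44) was higher and Dusp14 (-0.86), Dusp4 (-0.52) and Dusp8 (-0.37) were lower. Kinase activity was not measured. Of 12 genes induced by neuronal activity, 10 were lower, among them Egr4 (-2.09), Nr4a2 (-2.06), Arc (-2.0) and Nr4a1 (-1.94), and only Nptx2 (1.66) was higher.

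Without R24h_C1, where 320 of 13257 genes were called, 4 of 7 tested AP-1 targets, 3 of 20 tested stress-induced factors and 1 of 7 tested Maf and CNC factors were called higher, 4 of 12 activity-induced genes lower, and no JNK pathway gene or phosphatase. Of the ERK, p38 and SRF genes 1 was then lower and none higher. Leaving out each Sham_C library, with 562 to 760 genes called in all, left 8 AP-1 targets, 6 or 7 stress-induced factors, 1 or 2 Maf and CNC factors, 4 to 6 lowered activity-induced genes, and no JNK pathway gene or phosphatase. Without R24h_C3 (2013 genes called) there were 5 of 7 tested AP-1 targets and 8 stress-induced factors, and without R24h_C2 (4858 genes called) there were 6 of 7 tested AP-1 targets, 3 phosphatases higher and 3 lower, and 1 JNK pathway gene higher and 2 lower. In R24h_T against Sham_T no member of these lists was called except 3 activity-induced genes, all lower: Nr4a1 (-1.98, limma adjusted p = 0.00334), Egr4 (-1.62, 0.0302) and Egr1 (-1.57, 0.0463). AP-1 targets had a median of 1.06 there over 8 tested genes, beside 0.06 over all genes, with Timp1 at 3.30 (limma adjusted p = 0.0532) and Spp1 at 4.0 (0.186). Without R24h_T3, where 824 of 13225 genes were called, 4 of 6 tested AP-1 targets, 6 of 17 stress-induced factors and 4 of 7 Maf and CNC factors were called higher in R24h_T. Over both arms 14 of 15 tested AP-1 targets, 15 of 24 stress-induced factors and 5 of 7 Maf and CNC factors were higher, and 9 of 12 activity-induced genes were lower and 1 higher, beside 19.3% of all genes higher and 5.38% lower. Between R24h_T and R24h_C no gene of these lists was called, and the median of 15 tested AP-1 targets was -1.23, beside -0.08 over all genes. In R28d_C against R24h_C 9 of 14 AP-1 targets were lower, beside 4.79% of all genes, and at 28 d against sham over both arms none of these list genes was called.

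By 28 d the 5 members that had been higher at 24 h with the scramble were lower than at 24 h, and no member passed against sham. In R28d_C against R24h_C, 5 members were lower, where 6.00% of 13988 genes were called and 4.79% were called lower. The 2 comparisons share the R24h_C libraries. Atf3 and Maff passed the filter through R24h_C, since in R28d_C only Maff reached 1 FPKM, and only in R28d_C2 (1.10). Atf3 was at 0.288, 0.955 and 0.393 FPKM in R28d_C, against 14.1, 4.94 and 17.8 FPKM in R24h_C (log2 difference -2.97, SE 0.43, limma adjusted p = 0.0289). Ier3 was at 3.12, 4.73 and 3.56 FPKM in R28d_C, against 19.3, 17.4 and 28.1 FPKM in R24h_C (-2.22, limma adjusted p = 0.0151). Maff (-2.38, 0.0307), Fosl1 (-2.38, 0.0408) and Jun (-1.24, 0.0468) passed as well. These calls sat near the threshold. Without R24h_C1, R24h_C3 or R28d_C3, 0 members were called, beside 0, 2 and 1 genes in all in place of 839. Without R28d_C1 or R28d_C2, 1 member was called, beside 45 and 55 genes. Without R24h_C2, 5 members and 2913 genes were called. With no filter 0 members and 4 genes were called. Median-ratio scaling called 4 members, beside 748 genes, and lost Jun (-1.11, limma adjusted p = 0.0512).

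With the Tiparp hairpin, 0 of 13817 genes were called between R28d_T and R24h_T, with 1119 genes and 2 members at an unadjusted p under 0.05. Fosb, at 1.92, 3.34 and 4.32 FPKM in R28d_T and 1.33, 1.84 and 1.70 FPKM in R24h_T, was the 1 member without overlap (0.64, limma adjusted p = 0.564).

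Against sham at 28 d, over both arms, 0 of 9 tested members were called, where 0.00703% of 14234 genes were called. There 2465 genes and 3 members had an unadjusted p under 0.05. Fos had a difference of -0.47 (unadjusted p = 0.0134, limma adjusted p = 0.179), Jun of 0.36 (limma adjusted p = 0.320), Ier3 of 0.35 (0.204) and Jund of 0.13 (0.269). In R28d_C against Sham_C, 0.0522% of genes, 0.0224% higher and 0.0298% lower, were called. No member had even an unadjusted p under 0.05, while 1542 genes did. All 10 members overlapped there, as did all but 18.7% of genes (12.6% higher, 6.08% lower). In R28d_T against Sham_T, 0.00739% of genes and 0 members were called, with 1426 genes and 3 members at an unadjusted p under 0.05. Fos was at 11.3, 16.2 and 16.1 FPKM in R28d_T, against 22.8, 23.3 and 21.7 FPKM in Sham_T, with no overlap (-0.62, limma adjusted p = 0.369). Jun was at 19.3, 20.0 and 14.0 FPKM in R28d_T, against 13.6, 9.43 and 9.97 FPKM in Sham_T, also with no overlap (0.65, limma adjusted p = 0.386). Junb (-0.32) lay lower without overlap, and Maff, which failed the filter there, lay higher without overlap. Of all genes tested, 5.42% lay lower and 10.9% higher without overlap (16.3% in either direction).

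Libraries at 28 d were uneven. Atf3 was at 2.54, 0.959 and 0.363 FPKM in R28d_T and 0.288, 0.955 and 0.393 FPKM in R28d_C, so R28d_T1, R28d_T2 and R28d_C2 were above every sham library. The median deviation from sham of the 5 members called at 24 h with the scramble was 0.78, 0.60 and 0.22 in R28d_T and -0.11, 0.54 and 0.06 in R28d_C. Sham_C was among the values by which these 5 were picked, so these medians cannot be used to compare the arms either. The reactive astrocyte sum was 1436, 708 and 122 FPKM in R28d_T and 50.6, 623 and 242 FPKM in R28d_C, so R28d_C1 stood near sham for both. The part of reactive astrocytes in these values was not tested. Between the arms at 28 d, no member and 0 of 13773 genes were called, with 347 genes and 0 members at an unadjusted p under 0.05.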

How the data were processed

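RNA was poly(A) selected from ipsilateral cortex and made into stranded, paired-end libraries with molecular identifiers, per the labels' protocols. FPKM per gene were deposited by the authors; per the submitters' processing notes the tools were HISAT, StringTie and edgeR with build mm9, versions not stated, and the counting of strands is not given in the sources used here. FPKM carry no read totals, so depth and counting error are unknown beyond the rough ratio given above. Whether the 3 libraries of a group come from separate mice is not in the labels, and p-values speak of the spread among libraries only.

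The test was limma 3.58.1 on log2(FPKM + 1) in R 4.3.3, two-sided with a trended prior, using only the groups compared, or both arms with an arm term or interaction. Tested genes reached 1 FPKM in 3 or more of the libraries fitted. p-values were adjusted over all genes tested by Benjamini and Hochberg at 0.05. Of 62 repeated symbols the entry with the highest mean was kept, which left 37257 genes. The code was tested on simulated data. Figures used Python 3.11.15 and matplotlib 3.10.9. Cd44 is on both the AP-1 target and the reactive astrocyte list. The members and lists were chosen with earlier results of these data known. All members are named; of each list, up to 4 genes that passed with the largest difference, or else the 2 with the smallest p. Nptx2 was named after its value was seen, and 1 gene that the rule names is not reported here. Gene-model overlaps came from GENCODE M21, by name only, with 37171 gene IDs matched (99.8%). As alternatives, each library was left out in turn, the filter was dropped, the pseudocount was 0.1, libraries were scaled to median ratios or weighted, the replicate number was a block, or 1 fit held all 18 libraries; for the lists they were added after seeing the data.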

Additional observations from a re-analysis of the deposited data

How the results depend on the processing

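Over 13 comparisons, the number of members called kept within 1.5 times its value in 75 of 78 cases under the alternatives that keep all libraries. The exceptions were R28d_T against Sham_T with array weights (3 members, of which 2 higher and 1 lower) and R28d_C against R24h_C with no filter (0) or with the replicate block (0), where 4 and 0 genes in all were called in place of 839. The last 2 adjust over more genes or leave fewer degrees of freedom; for the array weights the cause was not tested. With libraries left out, 95 of 102 counts kept to that range. Both tallies are made up mostly of counts of 0 that stayed at 0. Only R24h_C against Sham_C (5), R28d_C against R24h_C (5) and both arms at 24 h (6) had member calls to lose. With libraries left out the count fell in 6 cases. These were R24h_C against Sham_C without R24h_C1, and R28d_C against R24h_C without each library except R24h_C2. Over all genes 320 were called in the first, in place of 3333, and 0 to 55 in the others, in place of 839. The count ran from 1 to 5 in R24h_C against Sham_C, 0 to 2 in R24h_T against Sham_T, 0 to 5 in R28d_C against R24h_C, 6 to 6 over both arms at 24 h, and 0 to 0 elsewhere. Array weights gave 7 members in R24h_C against Sham_C, beside 7533 of 13873 genes, and 7 in R28d_C against R24h_C, beside 7149 of 13988 genes.

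Same-numbered libraries did not deviate together in all pairs of any comparison, so the numbers do not pair them; only in R24h_C against Sham_C did each library correlate best with its own number (r 0.08, 0.08 and 0.01). There the replicate block kept 5 members and called 1991 genes in place of 3333.

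Directions turned, for differences that had not passed, in Junb with array weights (0.02), Jund with scaling (-0.08, and -0.08 over both arms) and Atf2 with scaling (-0.01) at 24 h, and Fosl2 with scaling (0.02) in the response difference. With libraries left out, Fosl2 ranged from -0.26 to 0.14 in R24h_C against Sham_C, from -0.35 to 0.16 in R24h_T against Sham_T, from -0.52 to 0.04 between the arms, from -0.31 to 0.25 in the response difference and from -0.20 to 0.02 over both arms. Junb ranged from -0.16 to 0.16 with the scramble, Jund from -0.10 to 0.10 with the Tiparp hairpin, Maff from -1.20 to 0.05 in the response difference, and Dusp1 from -0.26 to 0.20 with the scramble. Counts over all genes in R24h_C against Sham_C ran from 320 to 4858 with a library left out and from 1780 (no filter) to 7533 (array weights) otherwise, against 3333. With 3 libraries a group the intervals are wide, as for Atf3 between the arms at 24 h (-3.72 to 0.45), and FPKM give no counting error.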
